A study of Mus musculus with 4 samples.

Results

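Cells of the periosteum, the sheath on the outer face of bone, were parted by surface ACE and, in another sort, by surface CD74, and the comparison described here sets the ACE-positive fraction against the CD74-positive fraction. The members are 2 of the 4 libraries of the series, chosen by their labels: the ACE-positive library and the CD74-positive library. They stand in separately deposited tables, 1 per sorting marker, which were joined on the gene identifier, and the ACE-negative and CD74-negative libraries of the same tables served as a yardstick for differences between the tables. The groups were Cx3cr1-positive ACE-positive, Cx3cr1-positive CD74-positive, Cx3cr1-positive ACE-negative and Cx3cr1-positive CD74-negative cells, with 1 library each. All came from wild-type male C57BL/6 mice at postnatal day 28, were gated on CD45 and Cx3cr1 by antibody staining and flow cytometry, and carried no transgene or treatment that the labels name. The number of animals behind a library, and whether any were pooled, is not stated. The series examines how gene expression differs among subsets of Cx3cr1-positive macrophages of the periosteum.

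ACE, the angiotensin-converting enzyme, is a peptidase on the cell surface that makes angiotensin II, and among mouse blood monocytes its gene is known from the nonclassical, patrolling kind. CD74 is the invariant chain that guides MHC class II molecules to the compartments where antigen is loaded, and it also serves as a surface receptor for the cytokine MIF. Classical monocytes enter inflamed tissue, whereas nonclassical monocytes depend on the transcription factor Nr4a1 and crawl along vessel walls. Nothing in the labels says that a cell with both proteins was kept out of either positive fraction.

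Each group had 1 library, so no test was possible and the differences have no replicate check. The sorting marker and the table also change together between the libraries compared, so the effect of one and of the other cannot be told apart. Whole reads recovered from the deposited values came to 10944171 in ACE-positive, 13282126 in CD74-positive, 12561196 in ACE-negative and 7020232 in CD74-negative cells. They were rescaled together to reads per 1000000 (CPM), and 14274 genes were listed in both tables. Intervals in brackets are exact 95% intervals, which cover counting error only, and folds are ratios of CPM with no pseudocount. A count of 0 allows up to 3 reads, or 0.267 CPM in ACE-positive and 0.209 CPM in CD74-positive cells. Fewer cells of a kind and less RNA per cell cannot be told apart in such sorted bulk RNA. At the edge of the filter on low values, Lrmda lay just inside, at 5.08 CPM in ACE-positive and 4.94 CPM in CD74-positive cells, and Homer3 just outside, at 4.01 CPM in ACE-positive and 5.98 CPM in CD74-positive cells.

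The genes of the sorting markers were read first. Ace, gene ENSMUSG00000020681 on GRCm38 chromosome 11 (bases 105967945 to 105989964), had 1242 CPM [1221 to 1262] in ACE-positive and 229.7 CPM [222 to 238] in CD74-positive cells, against 11.8 CPM [9.96 to 14.0] in ACE-negative and 62.7 CPM [56.8 to 68.9] in CD74-negative cells. Its level was thus 5.40-fold higher [5.20 to 5.61] in ACE-positive than in CD74-positive cells, and the ACE-negative library was the lowest of the 4. Cd74, gene ENSMUSG00000024610 on chromosome 18 (bases 60803848 to 60812652), had 3791 CPM [3755 to 3827] in ACE-positive and 2126 CPM [2102 to 2150] in CD74-positive cells, against 571 CPM [557 to 585] in ACE-negative and 442 CPM [427 to 459] in CD74-negative cells. The level of Cd74 messenger RNA in the cells sorted for ACE was thus 1.78 times [1.76 to 1.81] that in the cells sorted for CD74 itself, a log2 ratio of 0.83 that did not reach the size for a call. Each label held within its own table, where the marker was higher in the positive than in the negative library, but Cd74 does not part the positive libraries in the direction of their labels. Cx3cr1, the fractalkine receptor of the gate, stood at 485 CPM in ACE-positive and 279 CPM in CD74-positive cells, against 184 CPM in ACE-negative and 153 CPM in CD74-negative cells. The macrophage markers Adgre1, which encodes F4/80, and Csf1r, the receptor for the growth factor M-CSF, were present in both positive libraries, at 381 and 1862 CPM in ACE-positive and 253 and 1093 CPM in CD74-positive cells. Lyve1, a marker of resident macrophages beside vessels, had few reads, at 0.624 CPM (7 reads) in ACE-positive and 1.74 CPM (25 reads) in CD74-positive cells.

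The positive libraries were alike at most genes and parted at the minority described here. Averaged over the pair, 9757 genes reached 5 CPM. Of these, the ACE-positive library was called higher at 171 (1.75%) and lower at 122 (1.25%). A call required a log2 ratio of CPM + 1 of at least 1 in size and an interval of the fold that excluded 1. The log2 ratio lay within 0.5 of 0 for 85.4% of the genes, with a median of -0.01. A ratio of 4 or more was reached by 24 of the genes called higher and by 7 of those called lower. Calls were 58.4% higher under the scaling used and 45.7% higher under plain totals, which moved the median of all genes by -0.08. Nearest to the threshold of a call, Serpinh1 (log2 ratio 1.002) and Aurkb (-1.003) lay just past it and Rab37 (-0.998) and Egr3 (-0.9995) just short of it.

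The negative libraries of the same tables differed at fewer genes. Of 9533 genes that averaged 5 CPM or more over the negative pair, 5 (0.0524%) were called higher and 69 (0.724%) lower in ACE-negative than in CD74-negative cells. Of the 171 genes called higher between the positive libraries, 104 had a negative-pair log2 ratio below 0.5 in size, 61 lay further out with the opposite sign and 6 further out with the same sign. Of the 122 called lower, 110 lay below 0.5 in size, 8 further out with the opposite sign and 4 further out with the same sign. Of the 9533 genes that averaged 5 CPM or more over the negative pair, 92.9% lay below 0.5 in size. The 171 and the 122 were not filtered on the negative pair, so the shares are of unlike sets. Some of the 104 had almost no reads there, such as Gjb2 with 0 reads in ACE-negative and 1 in CD74-negative cells. For such genes the ratio of CPM + 1 is small whatever the fold. The calls that the negative pair shared in the same direction came to 0 of the 171 and 1 of the 122, which was Prg2, and 11 of the 171 were called in the opposite direction. A gene averaging less than 5 CPM over the negative pair, such as Cd300e or Lilra5, could not be called there in either direction. These counts are thus no measure of how far such genes differ between the tables. The negative fractions were also sorted on different markers, so this pair is no pure measure of the tables.

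**Figure D1:**
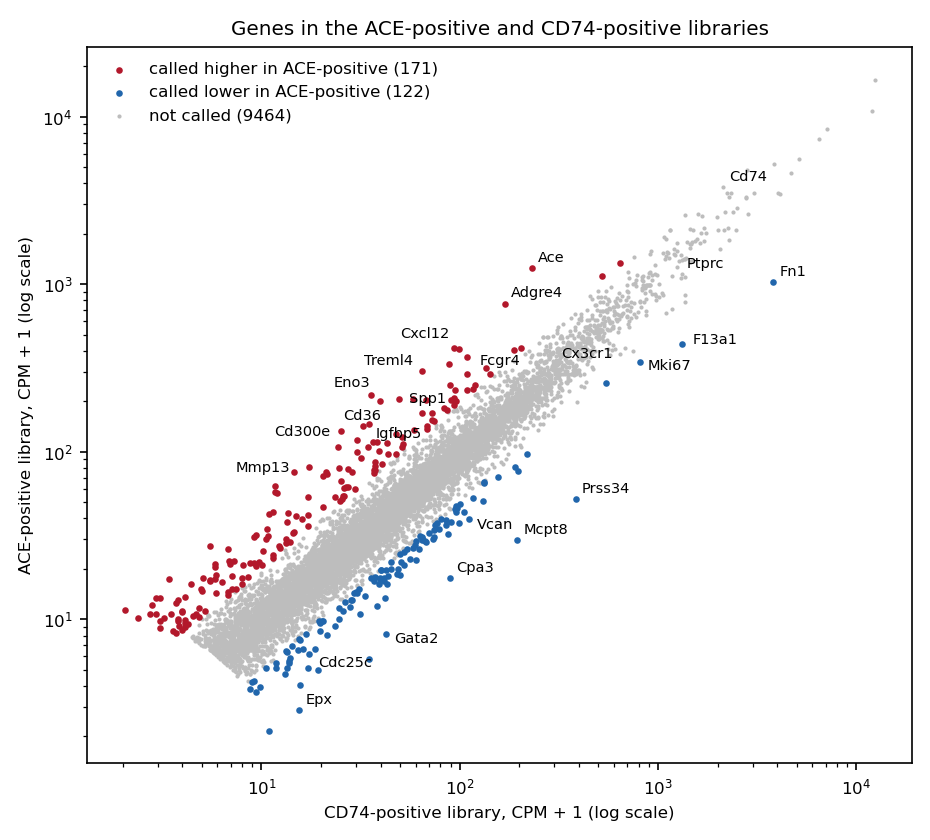
Level of each gene that averaged 5 CPM or more, in ACE-positive cells (vertical axis) against the CD74-positive library (horizontal axis), as CPM + 1 on log scales, 1 library each. Red points are the 171 genes called higher and blue points the 122 called lower in ACE-positive cells. Ace lies above the cloud and Prss34, Mcpt8 and Fn1 below it, while Cd74 lies at its upper edge among the genes not called.

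**Figure D2:**
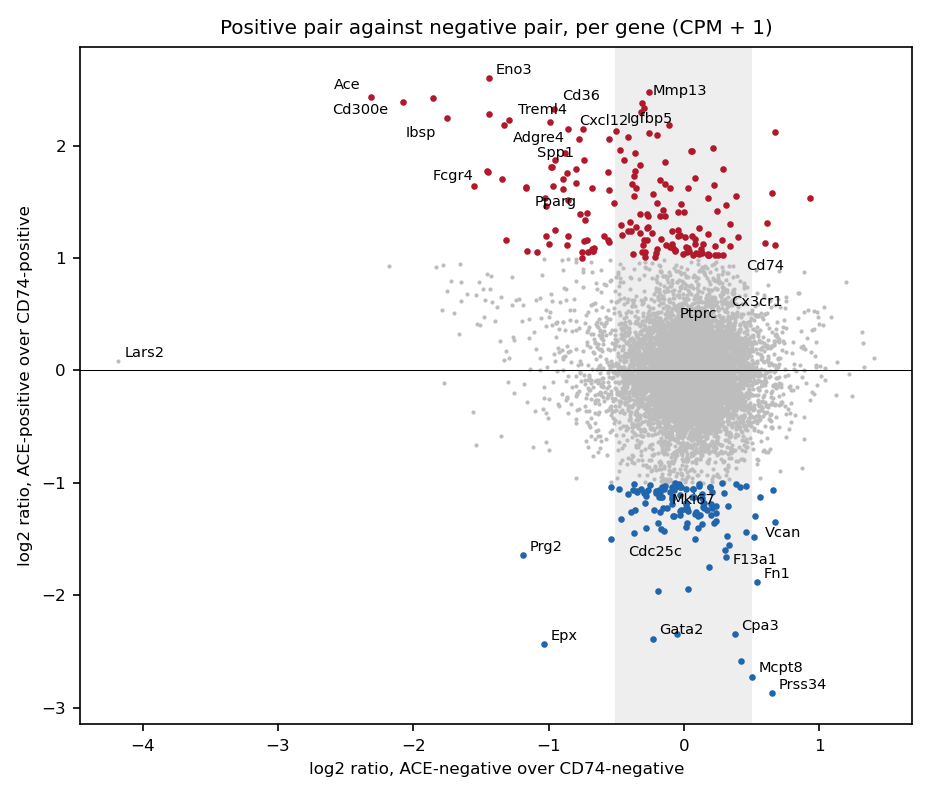
Log2 ratio of CPM + 1 of the ACE-positive over the CD74-positive library (vertical axis) against that of the ACE-negative over the CD74-negative library (horizontal axis), 1 point per gene. The grey band marks negative-pair ratios below 0.5 in size, where 104 of the 171 genes called higher (red) and 110 of the 122 called lower (blue) lie. Ace, Cd300e and Eno3 lie at the upper left, and Lars2 lies far left at a positive-pair ratio near 0.

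Most genes of nonclassical, patrolling monocytes were called higher in ACE-positive cells. Of 15 such genes, all of which passed the filter, 9 were called higher, Ace itself included, and 0 lower, with a median log2 ratio of 1.10 against -0.01 over all genes. All 15 lay above 0. Cd300e, an activating receptor of myeloid cells, stood at 131 CPM in ACE-positive and 24.3 CPM in CD74-positive cells, against 0.426 CPM in ACE-negative and 5.03 CPM in CD74-negative cells. It was 5.41-fold higher [4.81 to 6.10] between the positive libraries, and its lowest library was the ACE-negative one, with 5 reads. Eno3, which encodes the muscle form of the glycolytic enzyme enolase, stood at 217 CPM in ACE-positive and 34.8 CPM in CD74-positive cells, against 9.03 CPM in ACE-negative and 26.2 CPM in CD74-negative cells. At 6.22-fold [5.65 to 6.86] its log2 ratio of 2.60 was the largest among the genes called higher, whereas Eno1, the form that most cells use, stood at 654 and 633 CPM in ACE-positive and CD74-positive cells.

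The further called members are mostly surface receptors. Treml4, a myeloid receptor, stood at 302 CPM in ACE-positive and 63.7 CPM in CD74-positive cells, against 9.63 CPM in ACE-negative and 24.98 CPM in CD74-negative cells. Adgre4, an adhesion G protein-coupled receptor of the F4/80 family, stood at 766 CPM in ACE-positive and 168 CPM in CD74-positive cells, against 24.96 CPM in ACE-negative and 64.1 CPM in CD74-negative cells. Fcgr4, an activating receptor for immunoglobulin G, stood at 369 CPM in ACE-positive and 107 CPM in CD74-positive cells, against 17.0 CPM in ACE-negative and 48.3 CPM in CD74-negative cells. Their folds were 4.74 [4.41 to 5.11], 4.55 [4.35 to 4.76] and 3.43 [3.24 to 3.64], and each gene had the same order of the 4 libraries, highest in ACE-positive, then CD74-positive, then CD74-negative and lowest in ACE-negative cells. Cd36, a scavenger receptor for lipids and dying cells, followed that order too, at 199 CPM in ACE-positive and 38.7 CPM in CD74-positive cells, against 8.78 CPM in ACE-negative and 18.03 CPM in CD74-negative cells.

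The integrins of the list differed less. Itgal, the alpha chain of LFA-1, with which patrolling monocytes hold to the vessel wall, stood at 1118 CPM in ACE-positive and 520 CPM in CD74-positive cells, a fold of 2.15 [2.09 to 2.21]. Itgax, which encodes CD11c, stood at 153 CPM in ACE-positive and 71.7 CPM in CD74-positive cells, a fold of 2.14 [1.98 to 2.31]. These were the called members with a negative-pair ratio below 0.5 in size, at 0.23 and -0.08, while 5 members were called lower in ACE-negative than in CD74-negative cells. The call of Itgal was lost when the negative-pair ratio was subtracted, at 0.88. The other 6 members did not reach the call. Among them Nr4a1 stood at 2102 CPM in ACE-positive and 1154 CPM in CD74-positive cells (log2 ratio 0.86), Ceacam1, an adhesion molecule, at 380 and 212 CPM (0.84), and Spn, which encodes CD43, at 386 and 283 CPM (0.45). S1pr5, a sphingosine-1-phosphate receptor that mouse patrolling monocytes use to leave the marrow, was named after its values were seen. It stood at 106 CPM in ACE-positive and 23.2 CPM in CD74-positive cells, a fold of 4.58 [4.06 to 5.19].

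**Figure D3:**
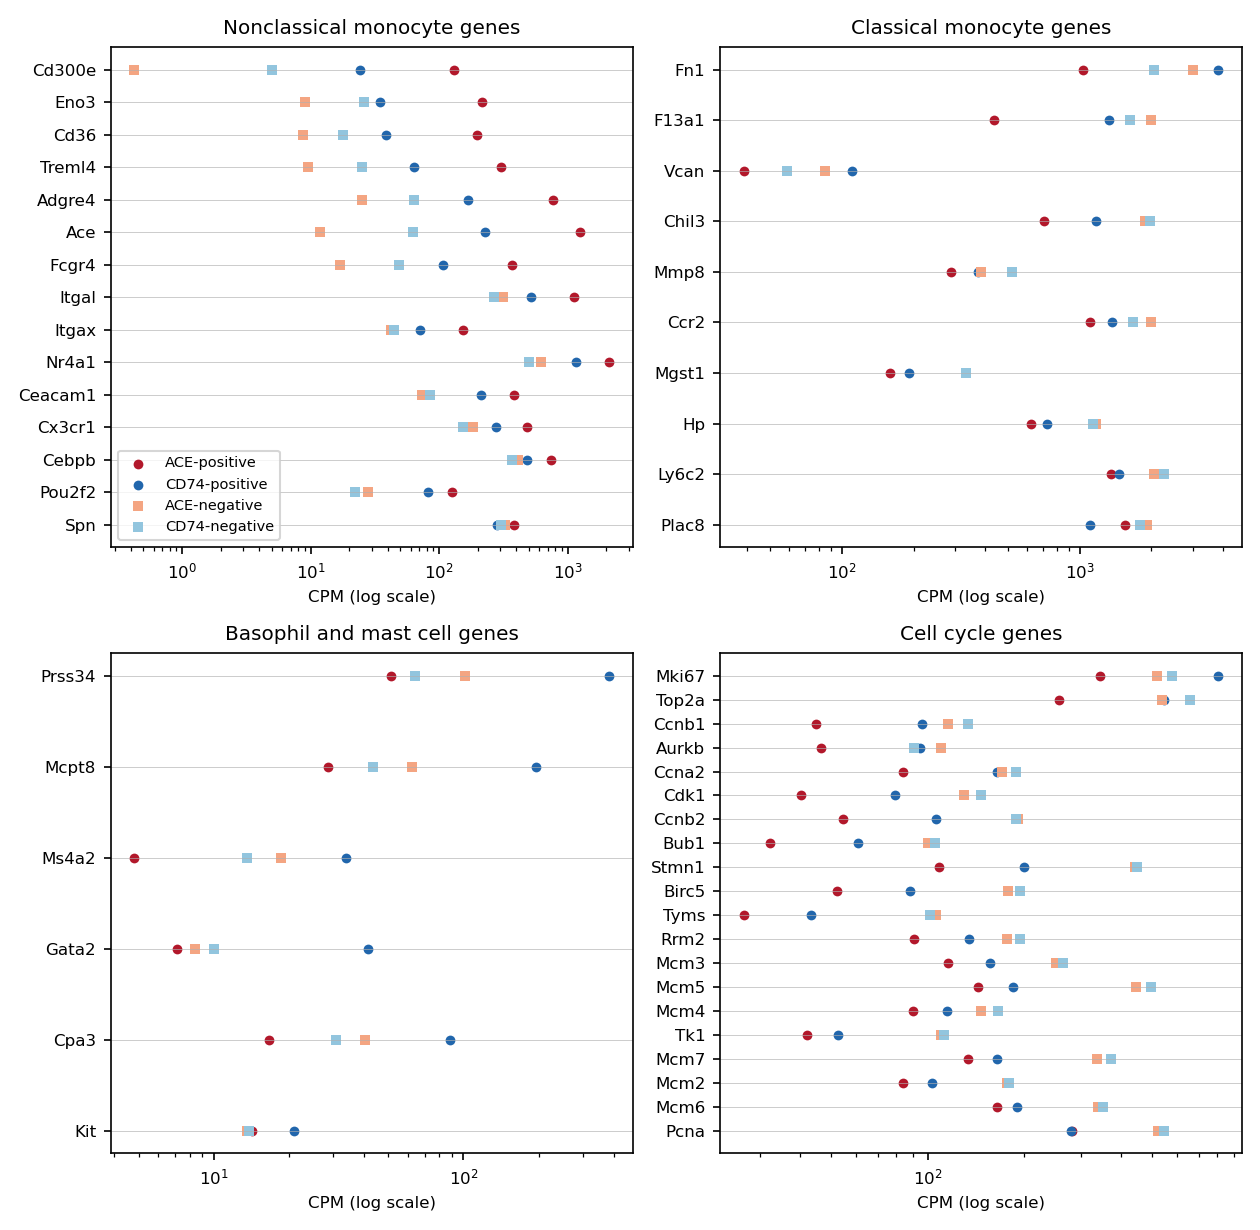
CPM of members of 4 gene lists in each library, on log scales, with 1 point per library (circles for the positive and squares for the negative libraries). Nonclassical monocyte genes stand furthest right in ACE-positive cells, the 6 basophil and mast cell genes stand furthest right in CD74-positive cells, and most cell cycle genes are lowest in ACE-positive cells.

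Genes of classical monocytes leaned the other way. Of 11 members, 0 were called higher and 3 lower, with a median log2 ratio of -0.38, and 1 of the 11 lay above 0. Fn1, which encodes the matrix protein fibronectin, stood at 1033 CPM in ACE-positive and 3817 CPM in CD74-positive cells, against 2978 CPM in ACE-negative and 2041 CPM in CD74-negative cells. It was 3.69-fold lower [3.62 to 3.77] in ACE-positive cells, the lowest of the 4, and the CD74-positive library was the highest. F13a1, the A chain of coagulation factor XIII, stood at 437 CPM in ACE-positive and 1323 CPM in CD74-positive cells, against 2000 CPM in ACE-negative and 1623 CPM in CD74-negative cells. It was 3.03-fold lower [2.94 to 3.13], and Vcan, the proteoglycan versican, was 2.84-fold lower [2.55 to 3.17] at 38.7 and 110 CPM. Members known as markers of the class were not called. Ly6c2, which encodes the Ly6C antigen, stood at 1357 CPM in ACE-positive and 1457 CPM in CD74-positive cells, against 2041 CPM in ACE-negative and 2257 CPM in CD74-negative cells. Ccr2, the chemokine receptor that these cells need to leave the marrow, stood at 1100 and 1364 CPM in ACE-positive and CD74-positive cells, against 1997 and 1670 CPM in ACE-negative and CD74-negative cells. Both positive libraries thus held classical monocyte messenger RNA, and for Ly6c2 and Ccr2 both had less of it than the negative libraries.

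Core macrophage genes did not differ enough between the positive libraries for a call. Of 19 members 0 were called in either direction, and 17 lay above 0. The median log2 ratio was 0.36 and the highest value 0.77, for Csf1r. The complement genes C1qa, C1qb and C1qc, which macrophages make in large amounts, stood at 344, 443 and 345 CPM in ACE-positive and 271, 305 and 252 CPM in CD74-positive cells. The same genes stood at 43.0, 49.8 and 28.3 CPM in ACE-negative and 16.7, 25.9 and 16.6 CPM in CD74-negative cells. Mertk, a receptor for dying cells, stood at 38.3 CPM in ACE-positive and 29.1 CPM in CD74-positive cells, against 1.79 CPM in ACE-negative and 1.33 CPM in CD74-negative cells. These 4 genes were thus higher in both positive libraries than in both negative ones, which does not hold for the whole list. Lyz2, the lysozyme of macrophages, monocytes and neutrophils, stood at 10863 CPM in ACE-positive and 12043 CPM in CD74-positive cells, against 23763 CPM in ACE-negative and 20084 CPM in CD74-negative cells. The summed level of the list was 19884 CPM in ACE-positive and 18405 CPM in CD74-positive cells, against 28943 CPM in ACE-negative and 24780 CPM in CD74-negative cells.

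The list of LYVE1-positive resident macrophages gave 1 gene called higher, 1 lower and 10 neither of 12 measured, with a median log2 ratio of 0.20. With the negative-pair ratio subtracted the median was -0.33, so no direction is given for the list. Mrc1, the mannose receptor, stood at 222 CPM in ACE-positive and 192 CPM in CD74-positive cells (fold 1.16 [1.09 to 1.22]), and Timd4, a receptor for phosphatidylserine, at 13.4 and 10.2 CPM (1.31 [1.03 to 1.65]). Folr2, the folate receptor of resident macrophages, was at 1.43 and 0.904 CPM and did not pass the filter. The called members were Gas6, the ligand of the receptors Axl and Mertk, and F13a1, which the classical monocyte list also holds. Gas6 stood at 42.0 CPM in ACE-positive and 12.6 CPM in CD74-positive cells, against 4.52 CPM in ACE-negative and 6.21 CPM in CD74-negative cells. That is a fold of 3.34 [2.80 to 3.98], while its receptor gene Axl stood at 492 and 412 CPM in ACE-positive and CD74-positive cells.

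Many genes were called over the negative library in both sorts. Within the tables, 929 of 9688 genes (9.59%) were called higher in ACE-positive than in ACE-negative cells, and 918 of 9692 (9.47%) in CD74-positive than in CD74-negative cells. Both sorts called 470 genes, which is 50.6% of the ACE list and 51.2% of the CD74 list. Set directly against each other in the positive libraries, 36 of these 470 were called higher, 0 lower and 434 neither, and 343 had a log2 ratio within 0.5 of 0, with a median of 0.21. Siglec1, which binds sialic acids and marks many resident macrophages, is an example: its log2 ratio over the negative library was 3.38 in the ACE table and 3.75 in the CD74 table, and the positive libraries stood at 233 and 221 CPM. Nrp2, a receptor for semaphorins and VEGF, gave 3.22 in the ACE table and 3.12 in the CD74 table, with 107 CPM in ACE-positive and 117 CPM in CD74-positive cells. Of the 171 genes called higher in ACE-positive cells, 154 were also called higher within the ACE table. Of the 122 called lower, 14 were called higher within the CD74 table and 0 within the ACE table. The comparisons share a positive library, so a gene high there tends to be called in both. The overlaps are therefore no separate support for the calls.

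MHC class II genes, the partners of CD74, did not differ enough for a call. Of 14 genes, 12 passed the filter, and 0 of them were called in either direction, with a median log2 ratio of 0.47 and 11 of 12 above 0. H2-Aa, the alpha chain of the I-A molecule, stood at 2095 CPM in ACE-positive and 1154 CPM in CD74-positive cells, against 359 CPM in ACE-negative and 295 CPM in CD74-negative cells. H2-Ab1, its beta chain, stood at 1922 CPM in ACE-positive and 1077 CPM in CD74-positive cells (log2 ratio 0.84). Ciita, the master regulator of the class II genes, stood at 81.3 CPM in ACE-positive and 62.4 CPM in CD74-positive cells, against 14.5 CPM in ACE-negative and 9.02 CPM in CD74-negative cells. The ratios of H2-Aa and H2-Ab1 were thus about the size of that of Cd74, while the median of the list was smaller. For H2-Aa, H2-Ab1 and Ciita the positive libraries lay above the negative ones, and the CD74-negative library was the lowest. That does not hold for the whole list, as H2-DMa lay below the negative library in both tables.

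Receptors of the CD300, LILR and PILR families moved in both directions. Of 14 genes, 5 were called higher and 1 lower, with a median log2 ratio of 0.77. Lilra5, an activating immunoglobulin-like receptor, stood at 61.8 CPM in ACE-positive and 10.7 CPM in CD74-positive cells, against 0.256 CPM in ACE-negative and 3.55 CPM in CD74-negative cells, and was 5.77-fold higher [4.84 to 6.91]. Cd300ld and Cd300c2, further CD300 receptors, stood at 203 and 250 CPM in ACE-positive and 66.3 and 88.2 CPM in CD74-positive cells, for folds of 3.06 [2.84 to 3.31] and 2.83 [2.65 to 3.03]. Lilra6, a paired immunoglobulin-like receptor, stood at 44.5 CPM in ACE-positive and 93.7 CPM in CD74-positive cells, against 113 CPM in ACE-negative and 108 CPM in CD74-negative cells, and was 2.11-fold lower [1.90 to 2.34]. Genes of these families, like Clec4a1 and Clec4a3 or Ly6i and Ly6c2, are near-identical copies in part, and how reads shared between copies were counted is not given in the sources used here, so their single values are uncertain. Of 8 Fc receptor genes, Fcgr4 was the 1 called higher and 0 were lower, with a median of 0.50. Fcgr3, another activating receptor for immunoglobulin G, stood at 359 and 319 CPM in ACE-positive and CD74-positive cells.

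Lipid handling genes held 3 called higher and 0 lower of 14 measured, with a median log2 ratio of 0.44. Pparg, a lipid-sensing nuclear receptor, stood at 105 CPM in ACE-positive and 33.3 CPM in CD74-positive cells, against 4.26 CPM in ACE-negative and 10.8 CPM in CD74-negative cells, a fold of 3.16 [2.84 to 3.52] between the positive libraries. Its known target genes Fabp4, a fatty acid carrier, and Cd36 were the other called members, and Fabp4 stood at 78.2 CPM in ACE-positive and 26.4 CPM in CD74-positive cells, against 2.98 CPM in ACE-negative and 7.09 CPM in CD74-negative cells. All 3 had the ACE-negative library as their lowest. Which cells of the sort carried the reads of these 3 genes was not tested. Apoe, the apolipoprotein that carries cholesterol, stood at 2585 CPM in ACE-positive and 1361 CPM in CD74-positive cells, a log2 ratio of 0.93 short of the call.

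Of 14 chemokine genes measured, 3 were called higher and 0 lower, with a median log2 ratio of 0.50. Cxcl12, the chemokine that holds blood cells in the marrow and guides vessel growth, stood at 413 CPM in ACE-positive and 92.5 CPM in CD74-positive cells, against 29.7 CPM in ACE-negative and 54.5 CPM in CD74-negative cells. Between the positive fractions the fold was 4.46 [4.20 to 4.75]. Its receptor gene Cxcr4 stood at 910 CPM in ACE-positive and 499 CPM in CD74-positive cells (log2 ratio 0.86). Ccl4 and Ccl5, chemokines that recruit leukocytes, stood at 189 and 31.6 CPM in ACE-positive and 92.1 and 13.5 CPM in CD74-positive cells, with log2 ratios of 1.03 and 1.17. Both calls were lost when ratios were centred by gene length, at 0.82 and 0.98.

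Of the renin-angiotensin and peptidase genes, 7 of 11 passed the filter, and 2 were called higher and 0 lower, with a median log2 ratio of 0.33. Besides Ace the called gene was Agt, which encodes angiotensinogen, the protein from which angiotensin is cut. It stood at 15.2 CPM (170 reads) in ACE-positive and 3.41 CPM (49 reads) in CD74-positive cells, against 0.511 CPM (6 reads) in ACE-negative and 1.92 CPM (13 reads) in CD74-negative cells. The fold was 4.45 [3.22 to 6.24]. Which cells of the sort carried the Agt reads was not tested. Ren1, which encodes renin, was at 0.0891 CPM in ACE-positive and 0.139 CPM in CD74-positive cells, below the level that a count of 0 allows. Agtr1a, an angiotensin II receptor, was at 0.980 and 0.278 CPM.

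Gene lists on bone, vessel and nerve support were mostly at like levels. Of 10 osteogenic growth factor genes 5 passed the filter, with 1 called higher, 0 lower and a median of 0.25. That gene, Spp1, which encodes the bone matrix protein osteopontin, stood at 205 CPM in ACE-positive and 48.4 CPM in CD74-positive cells, against 53.7 CPM in ACE-negative and 92.7 CPM in CD74-negative cells, a fold of 4.24 [3.89 to 4.62]. Igf1, insulin-like growth factor, stood at 31.9 CPM in ACE-positive and 26.7 CPM in CD74-positive cells (fold 1.19 [1.03 to 1.38]), and Tgfb1 at 371 and 349 CPM (1.07 [1.02 to 1.11]). Of 11 angiogenic factor genes 1 was called higher, Cxcl12, and 0 lower, with a median of -0.09, or 0.25 with the negative-pair ratio subtracted. Pdgfb, which recruits the cells around vessels, stood at 44.8 CPM in ACE-positive and 29.4 CPM in CD74-positive cells, and Thbs1, the angiogenesis inhibitor thrombospondin, at 416 and 684 CPM (log2 ratio -0.72). Of 9 neurotrophin and axon guidance genes 0 were called in either direction, with a median of -0.12.

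Genes of basophils and mast cells were called lower in ACE-positive cells and include the 2 lowest log2 ratios of the comparison, those of Prss34 (-2.87) and Mcpt8 (-2.72). Basophils are rare blood granulocytes that share receptors for immunoglobulin E with mast cells. Of 9 such genes 6 passed the filter, and 0 were called higher and 5 lower in ACE-positive cells, with a median log2 ratio of -2.48 against a median of 0.40 for the same genes between the negative libraries. Prss34, a basophil protease, stood at 51.4 CPM (577 reads) in ACE-positive and 383 CPM (5508 reads) in CD74-positive cells, against 101 CPM in ACE-negative and 64.0 CPM in CD74-negative cells. It was 7.45-fold lower [6.83 to 8.13] in ACE-positive cells. Mcpt8, another basophil protease, stood at 28.6 CPM in ACE-positive and 195 CPM in CD74-positive cells, against 62.3 CPM in ACE-negative and 43.6 CPM in CD74-negative cells, a fold of 6.80 lower [6.06 to 7.66]. The CD74-positive library was the highest and the ACE-positive library the lowest of the 4 for both.

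The remaining called members, a receptor chain, an enzyme and a transcription factor, were also lowest in ACE-positive and highest in CD74-positive cells. Ms4a2, the beta chain of the immunoglobulin E receptor, stood at 4.81 CPM in ACE-positive and 33.8 CPM in CD74-positive cells, against 18.6 CPM in ACE-negative and 13.6 CPM in CD74-negative cells. Cpa3, a carboxypeptidase of mast cell and basophil granules, stood at 16.6 CPM in ACE-positive and 88.2 CPM in CD74-positive cells, against 40.3 CPM in ACE-negative and 30.7 CPM in CD74-negative cells. Gata2, a transcription factor of blood progenitors, basophils and mast cells, stood at 7.13 CPM in ACE-positive and 41.5 CPM in CD74-positive cells, against 8.43 CPM in ACE-negative and 10.1 CPM in CD74-negative cells. Their folds were 7.02 [5.29 to 9.48], 5.32 [4.56 to 6.24] and 5.82 [4.60 to 7.45] lower. Kit, the stem cell factor receptor, was not called, at 14.3 and 20.9 CPM in ACE-positive and CD74-positive cells. The mast cell proteases Mcpt4 and Cma1 did not pass the filter, each at 3.48 CPM in ACE-positive cells and at 1.04 and 1.39 CPM in CD74-positive cells.

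Over all 9 listed genes the summed level was 131 CPM in ACE-positive and 768 CPM in CD74-positive cells, against 247 CPM in ACE-negative and 180 CPM in CD74-negative cells, and none was at 0 in a positive library. Whether basophils or other granulocytes in the CD74-positive sort carry other differences of this comparison was not tested. Some genes of eosinophil granules were called lower too, but not all genes named for eosinophils were. Ear2, named as an eosinophil-associated ribonuclease gene, was called higher and was chosen after its values were seen. It stood at 410 CPM in ACE-positive and 97.9 CPM in CD74-positive cells, against 59.0 CPM in ACE-negative and 87.1 CPM in CD74-negative cells. That is the order of the libraries given for Treml4, Adgre4 and Fcgr4, and which cells carried the Ear2 reads was not tested. Epx, eosinophil peroxidase, stood at 1.87 CPM (21 reads) in ACE-positive and 14.5 CPM (209 reads) in CD74-positive cells, against 0.937 CPM in ACE-negative and 2.96 CPM in CD74-negative cells. Prg2, eosinophil major basic protein, stood at 12.5 CPM in ACE-positive and 41.1 CPM in CD74-positive cells, against 13.6 CPM in ACE-negative and 32.4 CPM in CD74-negative cells, so that both libraries of the CD74 table were above both of the ACE table. With the negative-pair ratio subtracted, Prg2 stood at -0.45 and was no longer called.

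The promoters of the called basophil and mast cell genes, apart from Gata2, are shown because the genes moved together and Gata2 is among them. Each window runs from 250 bases before to 50 after the RefSeq start in GRCm38.p6, read 5′ to 3′ on the gene's strand: Prss34 at chr17:25298144-25298443 (plus strand), Cpa3 at chr3:20242132-20242431 (minus strand), Ms4a2 at chr19:11623670-11623969 (minus strand) and Mcpt8 at chr14:56085148-56085447 (minus strand). Capitals mark the 5-letter core of GATA factor sites, GATAA or its reverse complement TTATC, searched on both strands; the matches do not overlap.
Prss34: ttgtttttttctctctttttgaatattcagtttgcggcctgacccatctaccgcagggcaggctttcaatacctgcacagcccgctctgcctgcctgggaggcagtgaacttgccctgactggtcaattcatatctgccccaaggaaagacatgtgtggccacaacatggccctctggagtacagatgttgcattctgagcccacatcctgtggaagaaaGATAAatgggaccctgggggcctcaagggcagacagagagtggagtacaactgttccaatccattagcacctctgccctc
Cpa3: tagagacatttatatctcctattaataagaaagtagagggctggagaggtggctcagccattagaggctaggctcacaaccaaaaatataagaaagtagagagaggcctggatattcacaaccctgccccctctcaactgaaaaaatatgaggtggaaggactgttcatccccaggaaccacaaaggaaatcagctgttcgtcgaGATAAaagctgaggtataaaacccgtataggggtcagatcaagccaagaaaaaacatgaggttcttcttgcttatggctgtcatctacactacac
Ms4a2: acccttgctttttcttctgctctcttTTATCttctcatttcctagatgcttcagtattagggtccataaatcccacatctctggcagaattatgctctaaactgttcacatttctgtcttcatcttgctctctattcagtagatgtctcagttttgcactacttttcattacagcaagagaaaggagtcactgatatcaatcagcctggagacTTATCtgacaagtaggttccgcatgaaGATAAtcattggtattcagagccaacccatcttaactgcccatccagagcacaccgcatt
Mcpt8: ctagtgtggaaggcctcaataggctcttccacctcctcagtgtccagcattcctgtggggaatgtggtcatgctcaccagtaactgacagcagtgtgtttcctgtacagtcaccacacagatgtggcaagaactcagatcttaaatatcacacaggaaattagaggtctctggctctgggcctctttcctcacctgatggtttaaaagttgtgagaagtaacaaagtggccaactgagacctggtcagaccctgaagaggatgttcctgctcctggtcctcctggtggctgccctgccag
Of the 6 windows that RefSeq gives for the 5 called genes, 3 held the core, and 8347 of 32851 windows of all genes (25.4%) did. The windows of Mcpt8 and Gata2 held none. A match is a run of letters and not a shown binding site, and whether Gata2 acts on these genes was not tested.

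Some genes of dividing cells were called lower in ACE-positive cells. Of 20 cell cycle genes 0 were called higher and 4 lower, with a median log2 ratio of -0.71 and 1 of the 20 above 0. All 4 had a negative-pair ratio below 0.5 in size, and the negative-pair median was -0.10. Mki67, which encodes the Ki-67 antigen of cycling cells, stood at 344 CPM in ACE-positive and 806 CPM in CD74-positive cells, against 519 CPM in ACE-negative and 577 CPM in CD74-negative cells, and was 2.34-fold lower [2.26 to 2.43]. Top2a, a topoisomerase, stood at 256 CPM in ACE-positive and 548 CPM in CD74-positive cells, against 537 CPM in ACE-negative and 658 CPM in CD74-negative cells, and was 2.14-fold lower [2.05 to 2.23]. Ccnb1, the cyclin of mitotic entry, was 2.13-fold lower [1.92 to 2.37] and Aurkb, a mitotic kinase, 2.03-fold lower [1.83 to 2.25]. For all 4 the ACE-positive library was the lowest, while for Mki67 alone of them the CD74-positive library was the highest. The calls of Top2a and Ccnb1 were lost with the negative-pair ratio subtracted, at -0.80 and -0.87.

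The other members ranged from -0.97 to 0.01. The replication helicase genes Mcm2 to Mcm7 had log2 ratios between -0.43 (Mcm3) and -0.20 (Mcm6), and Pcna, the sliding clamp, stood at 282 CPM in ACE-positive and 280 CPM in CD74-positive cells. The mitotic genes Ccna2, Cdk1, Ccnb2 and Bub1 lay between -0.97 (Ccna2) and -0.90 (Bub1), and the rest were Stmn1, a regulator of microtubules (-0.88), Birc5, which encodes survivin (-0.75), and the nucleotide synthesis genes Tyms (-0.67), Rrm2 (-0.56) and Tk1 (-0.32). Cdc25c, the phosphatase that starts mitosis, is in no list and had 58 and 237 reads in ACE-positive and CD74-positive cells, a fold of 3.19 lower [2.38 to 4.33]. Further mitotic genes, chosen after their values were seen, were called lower as well: Cenpf, of the kinetochore, stood at 31.2 CPM in ACE-positive and 86.6 CPM in CD74-positive cells, and Foxm1, a transcription factor of mitotic genes, at 42.4 and 104 CPM.

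Some stromal and bone-forming genes were called higher in ACE-positive cells, although the gate takes CD45-positive cells. Of 10 fibroblast and periosteal stromal genes measured, 3 were called higher and 0 lower (median 0.55), and of 5 osteoblast and osteocyte genes 2 were called higher and 0 lower (median 0.89). Ibsp, which encodes bone sialoprotein, stood at 55.9 CPM in ACE-positive and 10.99 CPM in CD74-positive cells, against 5.62 CPM in ACE-negative and 21.3 CPM in CD74-negative cells, a fold of 5.09 [4.27 to 6.10]. Alpl, the alkaline phosphatase of mineralising cells, stood at 25.5 CPM in ACE-positive and 11.4 CPM in CD74-positive cells, against 12.4 CPM in ACE-negative and 12.3 CPM in CD74-negative cells, a fold of 2.24 [1.84 to 2.73]. Pdgfrb, a growth factor receptor of mesenchymal cells, stood at 13.7 CPM in ACE-positive and 4.03 CPM in CD74-positive cells, and Fbn1, which encodes fibrillin, at 17.0 and 6.12 CPM. The other called fibroblast gene was Postn, at 12.9 CPM in ACE-positive and 5.77 CPM in CD74-positive cells. With a pseudocount of 5 CPM the calls of Alpl, Fbn1 and Postn were lost, at 0.89, 0.99 and 0.73. That of Postn was also lost under plain totals (0.98) and with the negative-pair ratio subtracted (0.91). Col1a1, the main collagen of bone, was not called, at 1422 CPM in ACE-positive and 1085 CPM in CD74-positive cells, against 410 CPM in ACE-negative and 636 CPM in CD74-negative cells.

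Over the whole fibroblast list the summed level was 3408 CPM in ACE-positive and 2573 CPM in CD74-positive cells, against 1334 CPM in ACE-negative and 1964 CPM in CD74-negative cells. Over the osteoblast list it was 231 CPM in ACE-positive and 123 CPM in CD74-positive cells, against 115 CPM in ACE-negative and 167 CPM in CD74-negative cells. Dpt, a fibroblast gene, and Sost, the osteocyte gene for sclerostin, were at 0 in CD74-positive cells and at 0.356 and 0.267 CPM in ACE-positive cells. Several of the most changed genes outside the lists are also known from stromal cells. Lepr, the leptin receptor, stood at 26.2 CPM in ACE-positive and 4.52 CPM in CD74-positive cells (fold 5.80 [4.42 to 7.71]). Mmp13, a collagenase of bone and cartilage, stood at 74.9 CPM in ACE-positive and 13.6 CPM in CD74-positive cells (fold 5.49 [4.70 to 6.45]). Igfbp5, a binding protein of insulin-like growth factors, stood at 142 CPM in ACE-positive and 31.6 CPM in CD74-positive cells (fold 4.48 [4.04 to 4.99]). Kitl, the stem cell factor, and Adipoq, the hormone adiponectin, were chosen after their values were seen and stood at 16.0 and 19.5 CPM in ACE-positive cells against 4.52 and 4.87 CPM in CD74-positive cells. What part such cells have in the levels of Cxcl12, Spp1, Agt, Pparg, Fabp4 and Cd36 was not tested.

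Lists of other blood cells did not separate the positive libraries in the same way. Of 15 neutrophil genes 0 were called in either direction (median -0.25, or 0.43 with 1 called higher once the negative-pair ratio was subtracted, so no direction is given). Centred by gene length, 1 was called lower. Their summed level was 13256 CPM in ACE-positive and 15713 CPM in CD74-positive cells, against 18513 CPM in ACE-negative and 29816 CPM in CD74-negative cells. S100a9, an abundant neutrophil and monocyte protein, stood at 3467 CPM in ACE-positive and 4119 CPM in CD74-positive cells. Of 11 erythroid genes 0 were called in either direction between the positive libraries (median 0.67), whereas 10 were called lower in ACE-negative than in CD74-negative cells (median -1.53). Of the B cell genes, 1 of 9 was called higher between the positive libraries (median 0.09) and 5 were called lower between the negative libraries (median -1.02). T and NK cell genes summed to 64.2 CPM in ACE-positive and 85.3 CPM in CD74-positive cells, and platelet genes to 29.2 and 44.2 CPM. Of these platelet genes Itga2b, an integrin of megakaryocytes and progenitors, was called lower, at 4.01 CPM in ACE-positive and 18.3 CPM in CD74-positive cells (4.56-fold lower [3.31 to 6.40]).

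**Figure D4:**
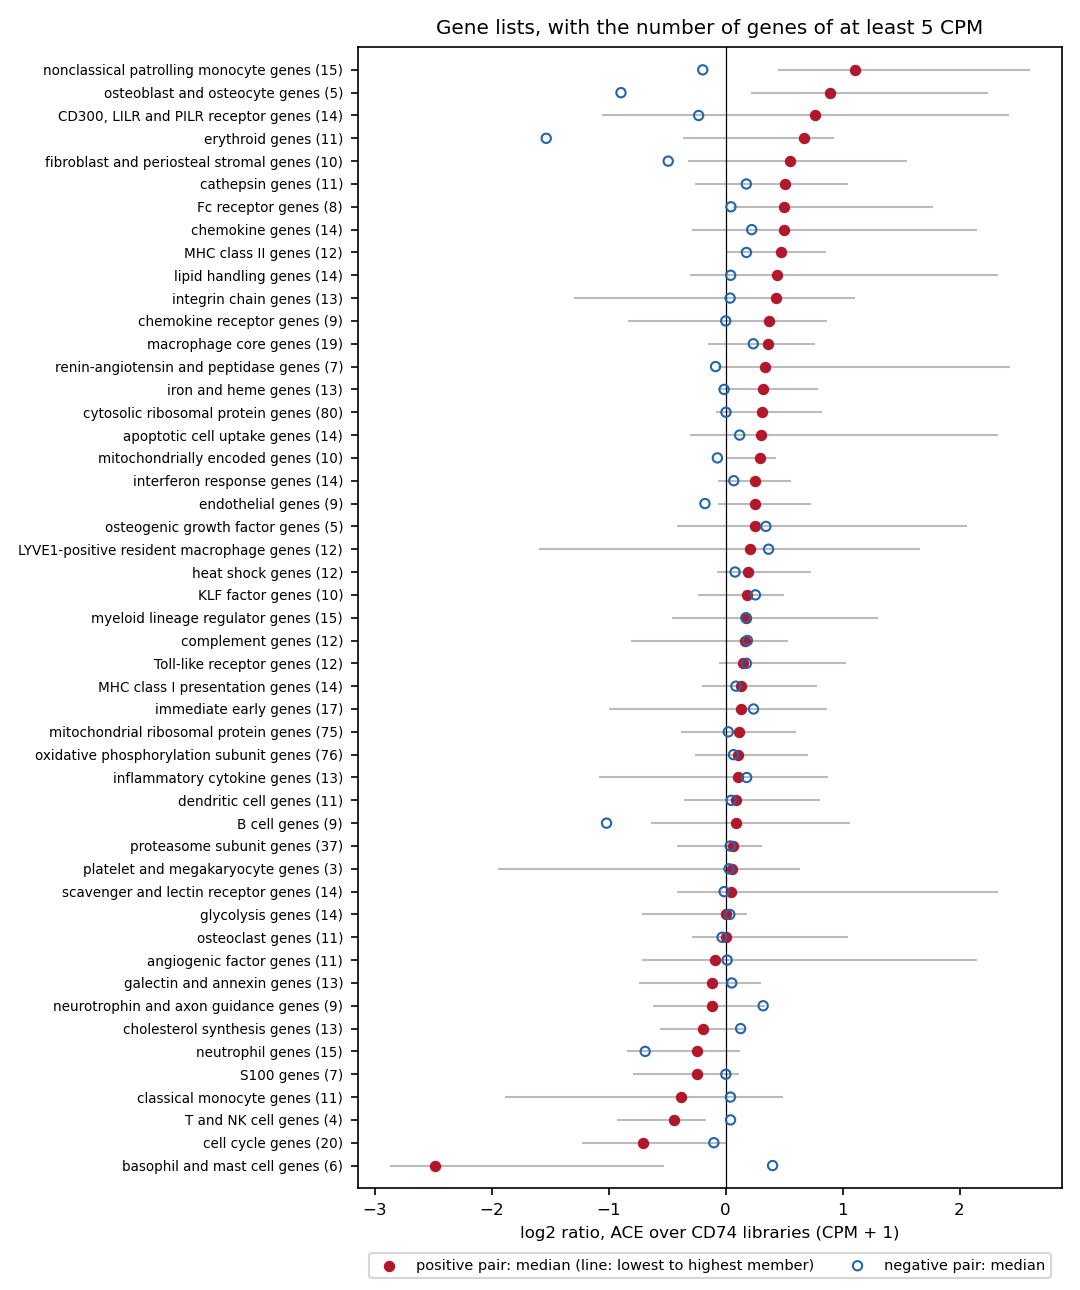
Median log2 ratio of CPM + 1 of each described gene list, ACE-positive over CD74-positive (filled red, with a line from the lowest to the highest member) and ACE-negative over CD74-negative (open blue); the number of measured genes is in parentheses. The basophil and mast cell list lies furthest left at -2.48 and the nonclassical monocyte list furthest right at 1.10, while most lists lie within 0.5 of 0.

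Of 52 gene lists, 49 had at least 3 measured genes and were described. In 24 of them at least 1 gene was called, and 9 had a median log2 ratio beyond 0.5 in size. Among all 9757 genes that passed the filter, 1.75% were called higher and 1.25% lower, so a list may hold a call at that share alone. Some called genes, such as Cd36 and F13a1, stand in more than 1 list, so the 24 are not separate results. The 80 cytosolic ribosomal protein genes are an example of a small difference: 0 were called, 79 lay above 0 and the median was 0.31. Centred by gene length it was 0.19, and short genes lay higher in general, with a median of 0.15 in the shortest length decile of genes (243 to 1911 bases) and -0.09 in the longest (10226 to 123179 bases). Between the negative libraries the corresponding medians were 0.03 and 0.05. Of 13 integrin chain genes 2 were called higher, Itgal and Itgax, and 1 lower, Itga6, the laminin receptor chain, which stood at 9.001 CPM in ACE-positive and 23.5 CPM in CD74-positive cells. Of 15 myeloid lineage regulators 1 was called higher, Id3, an inhibitor of helix-loop-helix factors, at 38.8 CPM in ACE-positive and 15.1 CPM in CD74-positive cells (fold 2.57 [2.18 to 3.04]). With the negative-pair ratio subtracted, Id3 stood at 0.97 and was no longer called. Spi1, the factor PU.1 that all these cells need, stood at 556 CPM in ACE-positive and 432 CPM in CD74-positive cells and was not called.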

How the data were processed

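RNA of 4 sorted fractions was sequenced as 1 library each, and the authors deposited 2 tables, 1 per sorting marker. The deposited values are a signal per gene and library, named a base mean per the file headers: gene counts divided by 1 size factor per library within a table. Reads were aligned with HISAT2 to GRCm38, per the submitters' processing notes; the gene counter, strand setting and annotation release are not stated. Gene lengths in bases come with the tables. In the labels, the CD74 samples point to a table of a different name, so the columns used for them follow the deposited table's own name and header. No further column of per-library values was found (0).

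The design had been written for counts. Dividing each column by its smallest step gave whole reads for 100% of values, within 0.001 reads, and these recovered reads were used. The tables were joined on the gene identifier (14939 genes in the ACE and 14943 in the CD74 table, 14274 in both; the others had at most 17 reads in a library). Reads were scaled together to CPM with edgeR 4.0.16 TMM factors (R 4.3.3) over the 4 libraries, which ranged from 0.934 to 1.08. Ratios are log2 of CPM + 1. Fold intervals are exact conditional binomial (Clopper-Pearson) and intervals of single levels exact Poisson, both from scipy 1.17.1. Genes averaging 5 CPM or more over a pair were tested for a call. The calling script was tested on simulated reads with known changes, which says nothing of replicate error. With 1 library a group, the tests of edgeR and DESeq2 could not be fitted, and no p-value is given. Library sizes of the joined genes ranged from 7019842 to 13280893 reads, which sets the width of the intervals.

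Alternatives were plain totals, DESeq2 1.42.0 size factors, TMM within the pair, pseudocounts of 0.1 and 5, filters of 1 and 20 CPM and none, centring on a running median over 501 genes by length or GC content, a wider limit for a flat negative pair, and subtraction of the negative-pair ratio. Promoter windows are from RefSeq.

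The members and lists were chosen with earlier results of these data known. The genes named by rule were Ace, Cd74, Cx3cr1, Ptprc, Adgre1, Csf1r, Lyve1 and Lars2, the 12 called genes with the largest and the 12 with the smallest ratio (and again among those flat in the negative pair), the 6 called genes of highest level in each direction, and from each list the 3 of highest level and the 3 of largest ratio in size. Genes called in both the positive and the negative pair were added, which gave 262 genes, of which 71 were called. Other list members, and genes said to be so, were chosen after their values were seen. Some list members are not reported here.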

Additional observations from a re-analysis of the deposited data

Results flagged for a closer look

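For 11 genes the ACE-positive library was called higher than the CD74-positive library while the ACE-negative library was called lower than the CD74-negative library. The values here are the log2 ratio of the positive pair minus that of the negative pair, and with 1 library a group these differences were not tested. The nonclassical monocyte genes were Ace (4.74), Eno3 (4.04), Treml4 (3.52), Adgre4 (3.51) and Fcgr4 (3.23). Ace is the gene of the marker that parted the ACE libraries, so its value is no separate result. The lipid genes Pparg and Fabp4 had 2.79 and 2.56. Ibsp, of bone matrix, had 4.00, the ion transporter gene Slc12a2 had 3.04, the B cell gene Ms4a1, which encodes CD20, had 2.22 and the carboxylesterase gene Ces2g had 2.14. Slc12a2 stood at 98.03 CPM in ACE-positive and 29.4 CPM in CD74-positive cells, against 2.90 CPM in ACE-negative and 8.87 CPM in CD74-negative cells. Ms4a1 stood at 19.96 CPM in ACE-positive and 9.04 CPM in CD74-positive cells, against 7.33 CPM in ACE-negative and 17.6 CPM in CD74-negative cells.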

How the results depend on the processing

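Among the named genes, no call turned to the opposite direction under an alternative. Filters leave a ratio unchanged, and a turn would have to cross both thresholds of a call. This outcome was thus near certain for most settings and is no measure of stability. The counts of genes called higher and lower between the positive libraries (171 and 122) were 113 and 64 with a pseudocount of 5 CPM, 99 and 79 with a filter of 20 CPM, 309 and 185 with no filter, and 285 and 207 with the negative-pair ratio subtracted; with a filter of 1 CPM the count called higher was 290. Subtraction kept 126 of the 171 and 83 of the 122. The genes flat between the negative libraries (104 higher and 110 lower) numbered 66 and 72 at 20 CPM, while 61 lower were left with a pseudocount of 5, and 175 and 187 higher were found at 1 CPM and with no filter. Between the negative libraries, the 5 called higher became 3 under plain totals and under either centring, 15 with a pseudocount of 0.1, 1 with 5, 54 at 1 CPM, 2 at 20 CPM and 74 with no filter, and the 69 called lower became 31 with a pseudocount of 5, 163 at 1 CPM, 19 at 20 CPM and 194 with no filter. The stricter or looser filters change which genes enter; for the other settings the cause was not tested. The other 38 counts stayed within 1.5 times.

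Of the 71 called genes among those named, 8 lost the call under plain totals (among them Ccl4, Ctsk, Ms4a1 and Tlr7), 10 with a pseudocount of 5 and 5 with centring by length. Of the 65 that could be compared with the negative-pair ratio subtracted, 11 lost it. That subtraction also moved the medians of the erythroid, osteoblast and fibroblast lists to 2.20, 1.78 and 1.02, and that of the basophil list to -2.86. It brought the macrophage core and cathepsin medians to 0.10 and 0.20. It turned the sign of the medians of the LYVE1 (-0.33), complement (-0.36), apoptotic cell uptake (-0.06), angiogenic (0.25), myeloid regulator (-0.07), S100 (0.02), immediate early (-0.04), osteoclast (-0.13), T and NK cell (0.04) and neutrophil (0.43) lists, so those lists have no settled direction. The neurotrophin and axon guidance median turned to 0.11 with a filter of 1 CPM or none. No paired analysis was possible because each group holds 1 library. At these depths a gene with no read can have up to 0.267 CPM in ACE-positive and 0.209 CPM in CD74-positive cells.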

Other observations

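Cathepsin genes, which encode proteases of the lysosome, had a median log2 ratio of 0.51 with 1 of 11 called higher and 0 lower. The called gene, Ctsk, the collagen-cutting protease of osteoclasts, stood at 141 CPM in ACE-positive and 67.8 CPM in CD74-positive cells, against 29.1 CPM in ACE-negative and 33.7 CPM in CD74-negative cells. The call was lost under plain totals. Of 11 osteoclast genes it was the 1 called, with 0 lower and a median of 0.00, and Acp5, the tartrate-resistant acid phosphatase, stood at 174 CPM in ACE-positive and 96.0 CPM in CD74-positive cells. Of 12 Toll-like receptor pathway genes 1 was called higher, Tlr7, a sensor of single-stranded RNA, at 237 CPM in ACE-positive and 116 CPM in CD74-positive cells, a call also lost under plain totals. Of 13 inflammatory cytokine genes 0 were called higher and 1 lower, Il6, at 3.21 CPM in ACE-positive and 7.93 CPM in CD74-positive cells. That call was lost with a pseudocount of 5 CPM (-0.66) and with the negative-pair ratio subtracted (-0.81). Interferon response genes (14 measured, median 0.26), iron and heme genes (13, median 0.32) and cholesterol synthesis genes (13, median -0.20) had 0 calls in either direction.

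Lars2, which encodes the mitochondrial leucyl-tRNA synthetase, stood at 1383 CPM in CD74-negative cells against 31.8 CPM in ACE-positive, 30.0 CPM in CD74-positive and 75.3 CPM in ACE-negative cells. Mme, which encodes neprilysin, a peptidase that also cuts angiotensin peptides, had a mean below the filter but stood at 8.56 CPM in ACE-positive and 1.25 CPM in CD74-positive cells, a fold of 6.84 [4.10 to 12.02]. Which cells of the sort carried the Mme reads was not tested.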
